A study of Homo sapiens with 12 samples.

Results

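The septins are a family of GTP-binding proteins, and their gene symbols (SEPT2, SEPT3 and so on) are read as calendar days by spreadsheet programs. In the expression table of this series, 13 septin symbols stood as September dates. The 10 dates 2-Sep, 3-Sep, 4-Sep, 5-Sep, 6-Sep, 7-Sep, 8-Sep, 9-Sep, 10-Sep and 11-Sep are described here as SEPT2 to SEPT11, out of 56593 distinct symbols. Each of the 10 stood on 1 line. They were chosen by symbol, with results of these data already known, so their levels and differences are given as a description, with no test.

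RNA-seq was performed on H1, an established human embryonic stem cell line, and on 3 populations sorted from H1 cultures on the way to blood. All 12 libraries, 3 per stage, came from this 1 line, with no genetic change named in the labels. H1 cells were undifferentiated. APLNR+ mesoderm cells, which carry the apelin receptor, were collected on day 2, after culture with activin A and BMP4 in a defined medium. Cells of the later stages had then received VEGF and bFGF: CD31+CD34+ hemogenic endothelial progenitors (HEPs) were collected on day 5, and CD43+ hematopoietic progenitor cells (HPCs) on day 8. Nothing in the labels says whether the 3 libraries of a stage came from separate cultures, so the spread between them may be technical. A stage here is a population of 1 cell line sorted on 1 or 2 surface proteins. Expression is given as FPKM, a level per length of transcript and scaled to the size of the library, which allows levels to be set side by side between genes. The values did not add up to a common total, with sums between 568036 (CD31+CD34+ replicate 2) and 1576040 FPKM (APLNR+ replicate 2). Stages were compared on the values as deposited.

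Septins assemble into rods, and the rods join end to end into filaments, rings and gauzes beneath the plasma membrane and along actin and microtubules. By sequence, the mammalian genes fall into 4 groups named after SEPT2, SEPT3, SEPT6 and SEPT7, and a rod is built from subunits of the SEPT2, SEPT6 and SEPT7 groups, with a SEPT3 group subunit added in the longer rods. Members of a group can often take the same place in a rod. Septin filaments act as scaffolds and diffusion barriers, and are best known for their work at the cleavage furrow and midbody of dividing cells, in cell shape and migration, and in the control of vesicle release, in platelets among other cells. Several septin genes, among them SEPT2, SEPT5, SEPT6, SEPT9 and SEPT11, are known fusion partners of the KMT2A gene in leukemia.

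The 10 genes are all protein coding and lie on 7 chromosomes, with SEPT2 and SEPT10 on chromosome 2, SEPT4 and SEPT9 on chromosome 17, SEPT3 and SEPT5 on chromosome 22, and SEPT6 on the X chromosome. RefSeq promoter windows (GRCh38.p14, 250 bases before the start of the gene, taking the start farthest upstream) were matched for 8 of the 10 genes, all but SEPT3 and SEPT5. The stretches of the windows of SEPT7, SEPT9 and SEPT11 that lie outside every annotated exon are shown because these abundant genes had different courses. SEPT7 was high in H1 and mesoderm and low in both later stages, SEPT9 was highest in HEPs, and SEPT11 was highest in mesoderm. Each stretch is printed 5′ to 3′ on the strand of the gene, and capitals mark the GC box letters GGGCGG on either strand, with matches that overlap run together.
SEPT7, chr7:35800736-35800931, plus strand: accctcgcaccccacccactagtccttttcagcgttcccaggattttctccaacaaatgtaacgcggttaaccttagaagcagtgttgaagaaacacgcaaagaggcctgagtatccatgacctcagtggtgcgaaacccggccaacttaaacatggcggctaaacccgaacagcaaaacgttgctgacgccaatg
SEPT9, chr17:77281249-77281409, plus strand: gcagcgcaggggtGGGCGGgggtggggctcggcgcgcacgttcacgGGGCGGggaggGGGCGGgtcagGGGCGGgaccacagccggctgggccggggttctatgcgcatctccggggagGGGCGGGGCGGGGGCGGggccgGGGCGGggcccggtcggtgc
SEPT11, chr4:76949502-76949702, plus strand: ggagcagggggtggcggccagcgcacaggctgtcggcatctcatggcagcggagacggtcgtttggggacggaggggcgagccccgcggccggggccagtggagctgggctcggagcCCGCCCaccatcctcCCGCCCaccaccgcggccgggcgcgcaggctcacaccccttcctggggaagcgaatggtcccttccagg
The SEPT9 stretch held 8 matches to GGGCGG in 161 bases and had a GC content of 83.2%, the SEPT11 stretch held 2 in 201 bases at 74.6%, and the SEPT7 stretch held 0 in 196 bases at 51.0%. Over whole windows of 250 bases, GGGCGG was found in 5 of the 8 genes (9 matches for SEPT9, 5 for SEPT10, and 3 each for SEPT2, SEPT6 and SEPT11), and in 42.6% of the 35116 windows of that length in the table. The letters GATAA, which GATA factors can bind, were in 0 of the 8 windows against 20.4% of all windows. CCGGAA was in 1 of 8 (SEPT10) against 14.5%, TGTGGT in 2 of 8 (SEPT9 and SEPT10) against 11%, and CANNTG in 2 of 8 (SEPT2 and SEPT7) against 61.8%. All letters were searched on both strands, and a match is a description of the letters alone.

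The stage labels were checked against their sorting and stage markers. POU5F1, a transcription factor of pluripotent cells, stood at 1002 ± 31.2 FPKM (mean ± SD, n = 3, as for all means below) in H1, 354 ± 20.8 in mesoderm, 84.4 ± 9.44 in HEPs and 12.5 ± 1.10 in HPCs. APLNR was at 0.528 ± 0.152 FPKM in H1, 383 ± 22.3 in mesoderm and 403 ± 24.6 in HEPs. PECAM1, which encodes CD31, was at 0.0997 ± 0.0853 FPKM in mesoderm and 55.2 ± 4.10 in HEPs, and CD34 went from 0.981 ± 0.125 to 47.7 ± 7.08 FPKM between the same stages. HPCs carried these transcripts too, with PECAM1 at 95.9 ± 11.7, CD34 at 22.2 ± 4.21 and APLNR at 23.7 ± 2.27 FPKM. SPN, which encodes CD43, was at 3.70 ± 0.748 FPKM in CD31+CD34+ and 75.5 ± 15.2 in CD43+ cells. Each sorted population therefore carried the transcript of the protein it was sorted on.

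Libraries numbered 1 stood apart from the others in depth. Relative to CD43+ replicate 3, the depth estimated from the low values was between 0.555 and 0.753 in the 4 libraries numbered 1, and between 1.00 and 1.27 in the other 8. Replicate 1 was the lowest of the 3 libraries in all 4 stages for SEPT6, SEPT7, SEPT8 and SEPT11, which is 4 of the 10 septins, and for 18.7% of the 14840 genes tested. The same was true of replicate 3 for 6.37% of genes and no septin, and of replicate 2 for 0.438% of genes and no septin. In SEPT7 the level in replicate 1 was between 0.607 and 0.715 times the mean of replicates 2 and 3, and in SEPT11 between 0.662 and 0.767 times. SEPT5 went the other way, at 1.06 to 1.33 times. The part of depth in these differences was not tested.

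**Figure D1:**
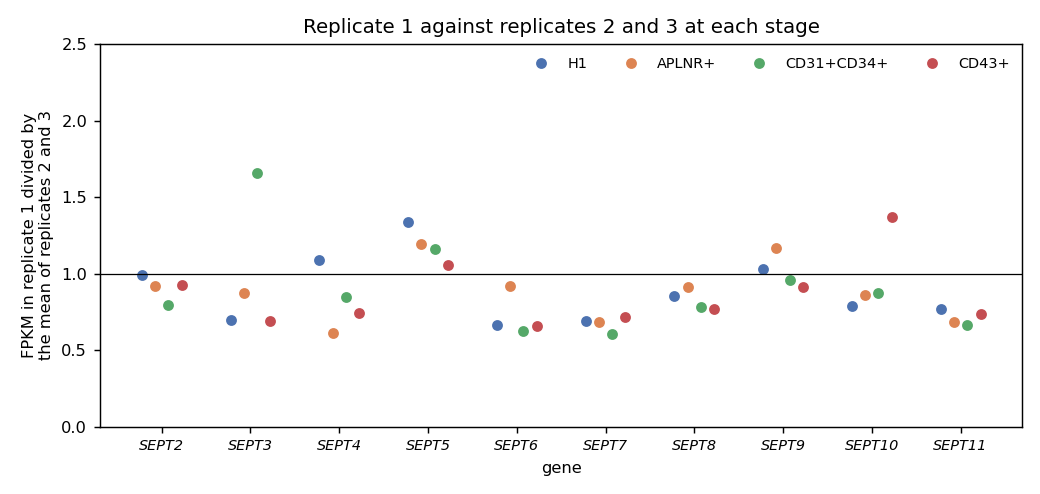
Level of each of the 10 septin genes in replicate 1 divided by the mean of replicates 2 and 3 (vertical axis, a ratio of FPKM values), with 1 point per stage. All 4 points of SEPT6, SEPT7, SEPT8 and SEPT11 lie below 1, and all 4 of SEPT5 lie above it.

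The summed level of the 10 septins was 421 ± 30.3 FPKM in H1, 444 ± 35.3 in mesoderm, 359 ± 32.5 in HEPs and 271 ± 21.4 in HPCs. As a percentage of the summed FPKM of all genes tested, the libraries spanned 0.0298 to 0.0342 in H1 and 0.0347 to 0.0628 in mesoderm. They spanned 0.0235 to 0.0761 in HEPs and 0.0325 to 0.0469 in HPCs, so a fall from H1 to HPCs was not seen on that scale. In H1 and APLNR+ cells the most abundant members were SEPT2, SEPT7 and SEPT9, one from each of 3 sequence groups, and SEPT11 of the SEPT6 group came next. In both later stages SEPT9, SEPT2 and SEPT11 led, and SEPT7 had moved to the fifth place in CD31+CD34+ and the fourth in CD43+ cells. In APLNR+ cells the libraries of SEPT2, SEPT7 and SEPT9 overlapped, so their order there is not resolved. The libraries of SEPT7 also overlapped those of SEPT9 in H1, SEPT8 in CD31+CD34+ cells and SEPT6 in CD43+ cells. The places of SEPT7 next to these genes are therefore not resolved either. In bulk RNA a lower level can come from fewer cells that carry a transcript or from less transcript per cell, and these cannot be told apart here.

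**Figure D2:**
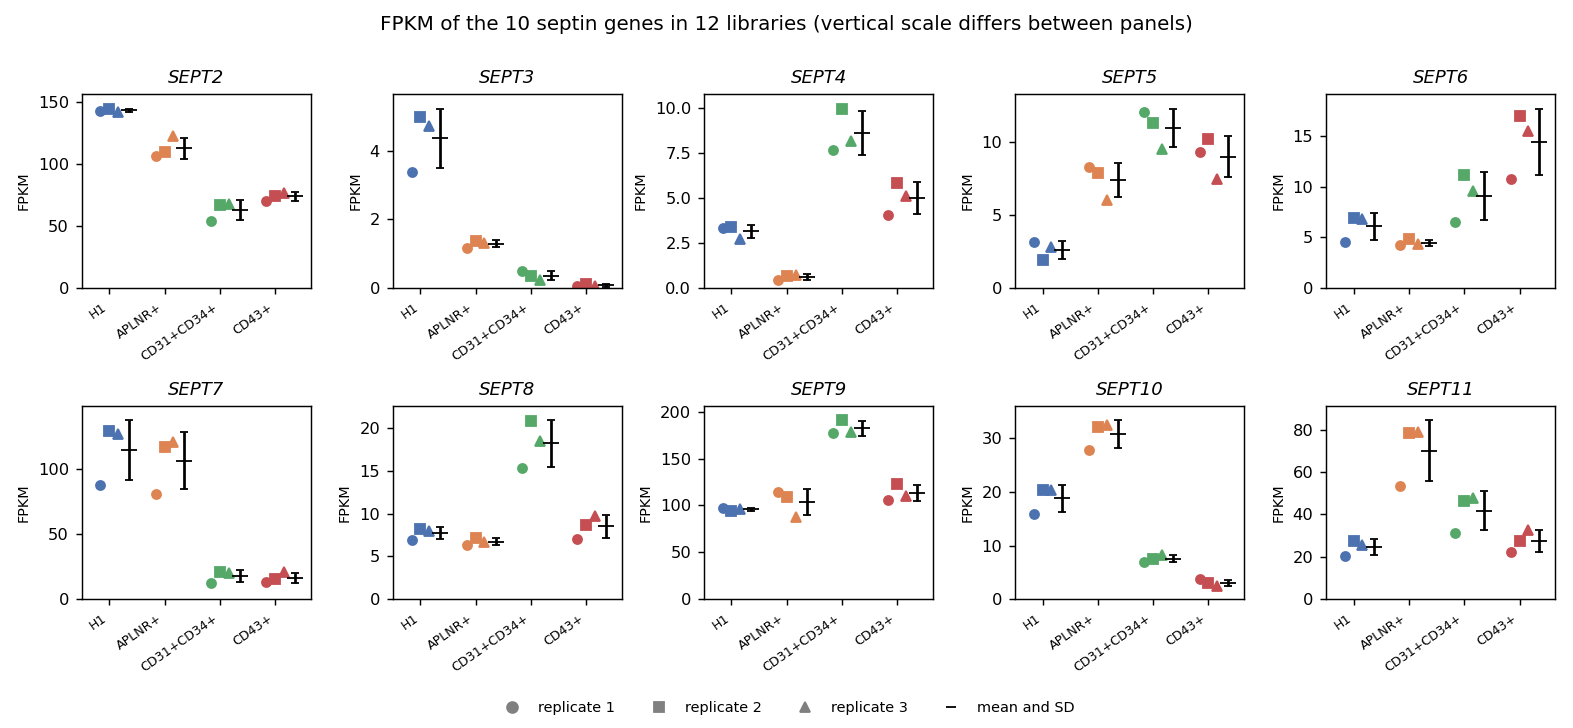
FPKM (vertical axes, linear and starting at 0, with a scale of their own in each panel) of the 10 septin genes in the 3 libraries of each of the 4 stages, with the mean and SD in black. SEPT7 lies between 80.8 and 129 FPKM in H1 and APLNR+ cells and between 12.3 and 20.7 FPKM in the later stages, and SEPT9 lies above 177 FPKM in CD31+CD34+ cells and at most at 123 FPKM elsewhere.

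SEPT7 is a core subunit of the rods and has no close paralog in its group. Its level was 87.7, 129 and 126 FPKM in the H1 libraries (replicates 1 to 3), 80.8, 117 and 120 FPKM in mesoderm, 12.3, 20.6 and 20.1 FPKM in HEPs and 12.8, 15.2 and 20.7 FPKM in HPCs. The first 2 stages overlapped each other, the last 2 overlapped each other, and every library of the first 2 lay above every library of the last 2. From APLNR+ to CD31+CD34+ cells the difference was -2.53 ± 0.24 on the log2(FPKM + 1) scale (SE of the limma fit), from a mean of 106 ± 21.9 to 17.7 ± 4.62 FPKM. Across all 4 stages the highest mean was 7.04 times the lowest. A pseudogene, SEPT7P2, shares 0.866% of the 50-base stretches of SEPT7 transcripts, and 2.96% of the stretches are shared with some other gene. SEPT7P2 was at 8.79 ± 1.36, 6.92 ± 0.225, 3.32 ± 0.437 and 4.48 ± 0.384 FPKM from H1 to CD43+ cells. How the authors' counting divided reads between a gene and its copies is not given in the sources used here.

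SEPT2, a ubiquitous septin that supports actomyosin at the cleavage furrow, was the most abundant septin in H1. It was at 143, 145 and 142 FPKM in H1, 106, 109.6 and 122 in mesoderm, 53.8, 67.2 and 68.1 in HEPs and 69.99, 74.6 and 76.8 in HPCs. No 2 stages overlapped, and the order was H1, APLNR+, CD43+ and CD31+CD34+ from high to low, although the lowest CD43+ library (69.99 FPKM) lay just above the highest CD31+CD34+ library (68.1 FPKM). Means were 143 ± 1.27, 113 ± 8.39, 63.0 ± 8.04 and 73.8 ± 3.49 FPKM in the order of differentiation. The SEPT2 gene overlaps HDLBP on the opposite strand, which stood between 93.4 and 122 FPKM, and 1.68% of the 50-base stretches of SEPT2 are shared with it. Whether the counting used strand is not stated.

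SEPT4, whose isoform ARTS promotes apoptosis by binding XIAP, had a different course from SEPT2 within the same sequence group. Its level was 3.32, 3.37 and 2.73 FPKM in H1, 0.426, 0.668 and 0.723 in mesoderm, 7.67, 9.97 and 8.17 in HEPs and 4.05, 5.83 and 5.13 in HPCs. All 4 stages were apart, with HEPs highest and mesoderm lowest. The mean was 14.2 times higher in CD31+CD34+ than in APLNR+ cells (8.60 ± 1.21 against 0.606 ± 0.158 FPKM), a difference of 2.58 ± 0.14 on the log2(FPKM + 1) scale. No APLNR+ library reached 1 FPKM, and 9 of the 12 libraries did. An antisense gene, SEPT4-AS1, overlaps SEPT4 and stood at or below 0.164 FPKM in every stage mean.

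SEPT5, which is abundant in platelets and neurons and binds syntaxins, was lowest in H1. It was at 3.14, 1.91 and 2.80 FPKM in H1, 8.30, 7.88 and 6.06 in mesoderm, 12.1, 11.3 and 9.56 in HEPs and 9.37, 10.2 and 7.47 in HPCs. H1 lay below every other library, APLNR+ below CD31+CD34+, and CD43+ overlapped both of the stages before it. From H1 to APLNR+ cells the difference was 1.22 ± 0.16 on the log2(FPKM + 1) scale. SEPT5 lies directly upstream of GP1BB, a subunit of the platelet receptor for von Willebrand factor, and a readthrough transcript, SEPT5-GP1BB, joins the pair. Of the 50-base stretches of SEPT5 transcripts, 66.9% are shared with the readthrough gene and 19.6% with GP1BB, so the SEPT5 values are uncertain wherever reads could go to either. GP1BB was at 0.0155 ± 0.0142 FPKM in H1, 0.0634 ± 0.0808 in mesoderm, 0.811 ± 0.606 in HEPs and 4.78 ± 1.505 in HPCs. It was highest in the CD43+ libraries (3.68, 6.50 and 4.17 FPKM), where SEPT5 was not above its CD31+CD34+ range. The summed level of the 10 megakaryocyte and platelet markers was between 7.51 and 10.6 FPKM in H1, between 2.06 and 3.86 in mesoderm, between 13.4 and 19.5 in HEPs and between 732 and 792 in HPCs, where 9 of the 10 reached a mean of 1 FPKM. GP1BA and GP9 were listed at 0 in all H1 and APLNR+ libraries. The part of these cells in the level of SEPT5 was not tested.

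SEPT9, which links septin rods to microtubules and actin and is needed at the midbody, was the most abundant septin of both later stages. It stood at 97.8, 93.9 and 95.7 FPKM in H1, 115, 109 and 88.1 in mesoderm, 177, 191 and 178 in HEPs and 106, 123 and 110.1 in HPCs. CD31+CD34+ cells lay above all other libraries, and APLNR+ cells overlapped both H1 and CD43+ cells. The means were 95.8 ± 1.92, 104 ± 14.03, 182 ± 8.00 and 113 ± 8.84 FPKM, and the difference from APLNR+ to CD31+CD34+ cells was 0.81 ± 0.10 on the log2(FPKM + 1) scale. An antisense gene, AC111182.1, shares 5.34% of the SEPT9 stretches and did not exceed 0.110 FPKM in a stage mean.

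SEPT3, the other measured gene of that sequence group, is known mainly from neurons. It was at 3.38, 5.00 and 4.73 FPKM in H1, 1.17, 1.38 and 1.31 in mesoderm, 0.484, 0.352 and 0.232 in HEPs and 0.0551, 0.107 and 0.0521 in HPCs. Each stage lay below the one before it. SEPT3 reached 1 FPKM in the 6 libraries of H1 and APLNR+ alone, and it passed the filter on low values through those stages. The highest stage mean was 61.1 times the lowest (4.37 ± 0.870 against 0.0715 ± 0.0310 FPKM), which was -2.31 ± 0.12 on the log2(FPKM + 1) scale, a scale that compresses differences between low values. The summed level of the 9 neural markers was between 111 and 145 FPKM in H1, between 40.0 and 54.2 in mesoderm, between 88.7 and 104 in HEPs and between 13.2 and 16.2 in HPCs, and most of it was TUBB3. Of the 9 genes, 6 had their highest stage mean in H1, where 3 of the 9 reached a mean of 1 FPKM. SOX1 and PAX6 had theirs in mesoderm, and STMN2 in HEPs, at 1.22 FPKM against 0.340 in H1. DCX, a microtubule-binding protein of young neurons, had means in the same order as SEPT3 (0.697, 0.0964, 0.0859 and 0.0339 FPKM), and SYP, a synaptic vesicle protein, went from 5.11 FPKM in H1 to 0.254, 0.126 and 0.432 FPKM. SOX1 and NEUROD1, transcription factors of neural cells, had means of at most 0.0113 FPKM in any stage. The part of neural cells in the SEPT3 levels was not tested.

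In the SEPT6 group, SEPT11 and SEPT10 were highest in mesoderm. SEPT11, which forms rods with SEPT7 and SEPT9, was at 20.4, 27.5 and 25.8 FPKM in H1, 53.4, 78.3 and 78.6 in mesoderm, 31.1, 46.1 and 47.9 in HEPs and 22.0, 27.5 and 32.5 in HPCs. APLNR+ cells lay above all other stages, by 1.46 ± 0.20 on the log2(FPKM + 1) scale against H1. CD31+CD34+ and CD43+ cells overlapped, and so did CD43+ and H1 cells.

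SEPT10, one of the less studied members of the group, was at 15.9, 20.3 and 20.3 FPKM in H1, 27.8, 32.2 and 32.5 in mesoderm, 6.90, 7.55 and 8.21 in HEPs and 3.69, 2.93 and 2.47 in HPCs. All 4 stages were apart, and the mean in APLNR+ cells (30.8 ± 2.65 FPKM) was 10.2 times that in CD43+ cells (3.03 ± 0.617 FPKM). From APLNR+ to CD31+CD34+ cells the difference was -1.89 ± 0.13 on the log2(FPKM + 1) scale, and from there to CD43+ cells it was -1.09 ± 0.13. SEPT10P1, a pseudogene, shares 5.82% of the SEPT10 stretches.

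SEPT8, known to bind the vesicle protein VAMP2 in neurons, was highest in HEPs, like SEPT4 and SEPT9. It was at 6.93, 8.25 and 7.94 FPKM in H1, 6.29, 7.12 and 6.71 in mesoderm, 15.4, 20.8 and 18.5 in HEPs and 7.09, 8.73 and 9.68 in HPCs. CD31+CD34+ cells stood above the other 3 stages, which overlapped with their neighbours. The difference from APLNR+ to CD31+CD34+ cells was 1.31 ± 0.13 on the log2(FPKM + 1) scale, and that from CD31+CD34+ to CD43+ cells was -1.02 ± 0.13. SEPT8 shares 12.5% of its stretches with CCNI2 on the opposite strand, which was at or below 0.406 FPKM in every stage mean.

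SEPT6, the X-linked member, was the septin of this group whose highest level came in CD43+ cells. Its values were 4.56, 6.89 and 6.86 FPKM in H1, 4.24, 4.82 and 4.39 in mesoderm, 6.51, 11.2 and 9.60 in HEPs and 10.7, 17.0 and 15.6 in HPCs. Neighbours in the order of level overlapped in each case, while CD43+ lay above all H1 and APLNR+ libraries. The difference from H1 to CD43+ cells was 1.12 ± 0.21 on the log2(FPKM + 1) scale, from 6.10 ± 1.34 to 14.4 ± 3.29 FPKM. In CD43+ cells the summed level of the 8 erythroid markers was between 1804 and 2250 FPKM, against 24.4 to 26.6 FPKM in CD31+CD34+ cells, and that of the 8 myeloid markers was between 51.6 and 59.2 FPKM, against 3.62 to 3.68 FPKM. Most of the erythroid sum in CD43+ cells was HBG2 (1324 FPKM) and HBE1 (525 FPKM). All 8 erythroid markers reached a mean of 1 FPKM in CD43+ cells, but AHSP was highest in H1, at 4.76 ± 2.25 FPKM against 1.80 ± 0.225. Of the 8 myeloid markers 3 did, AIF1, LYZ and CSF1R, at 36.0, 13.2 and 4.84 FPKM. Which cells of the CD43+ population carried SEPT6 was not tested.

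Step by step, the 10 septins were counted by whether the 3 libraries of a stage lay wholly above or below the 3 of the stage before, and by whether the difference reached 2-fold with the pseudocount of 1, a setting that shrinks differences of low genes such as SEPT3. The 4 comparisons share libraries, so their counts are not independent of each other. From H1 to APLNR+ cells, 3 septins were higher in every library (SEPT5, SEPT10 and SEPT11), 3 were lower (SEPT2, SEPT3 and SEPT4) and 4 overlapped. Of all 14840 genes tested, 26.1% were higher and 40% lower in this way. Differences of at least 2-fold were seen in 4 (SEPT5 and SEPT11 higher, SEPT3 and SEPT4 lower), against 8.43% of all genes higher and 7.76% lower. With replicates 2 and 3 alone, an alternative chosen after seeing the data, 9 of the 10 did not overlap. Fewer libraries per stage make non-overlap easier to reach, and the share over all genes was not computed for that setting.

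From APLNR+ to CD31+CD34+ cells no septin overlapped: 5 were higher (SEPT4, SEPT5, SEPT6, SEPT8 and SEPT9) and 5 lower (SEPT2, SEPT3, SEPT7, SEPT10 and SEPT11), where 36.9% of all genes were higher and 38.9% lower without overlap. The difference reached 2-fold in 4 septins, SEPT4 and SEPT8 upward and SEPT7 and SEPT10 downward, against 12.7% of all genes upward and 17.3% downward. With a pseudocount of 0.1 it was 5, SEPT3 being the addition (-1.64 against -0.76 with a pseudocount of 1). As plain ratios of mean FPKM, SEPT3 stood at 0.277 and SEPT6 at 2.03 times the earlier stage. The median over the 10 was -0.11 on the log2(FPKM + 1) scale and that over all genes was -0.01.

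From CD31+CD34+ to CD43+ cells, SEPT2 was the 1 septin higher in every library, 5 were lower (SEPT3, SEPT4, SEPT8, SEPT9 and SEPT10) and 4 overlapped, where 28% of all genes were higher and 30% lower without overlap. The median over the 10 was -0.46 on the log2(FPKM + 1) scale, against -0.00 over all genes. At least 2-fold differences were seen in 2, SEPT8 and SEPT10, both lower, against 8.96% of all genes lower and 5.71% higher, and both lay close to 2-fold. Leaving out CD31+CD34+ replicate 2, CD43+ replicate 1 or CD43+ replicate 3 left 1 of them past 2-fold. With a pseudocount of 0.1 the count was 3, with SEPT3 at -1.39 against -0.34, and the mean FPKM of SEPT3 in HPCs was 0.201 times that in HEPs.

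Between the ends of the course, from H1 to CD43+ cells, 4 septins were higher (SEPT4, SEPT5, SEPT6 and SEPT9), 4 lower (SEPT2, SEPT3, SEPT7 and SEPT10) and 2 overlapped (SEPT8 and SEPT11), where 33.9% of all genes were higher and 42.4% lower without overlap. At least 2-fold differences were seen in 5, SEPT5 and SEPT6 upward and SEPT3, SEPT7 and SEPT10 downward, against 14.7% of all genes upward and 22.6% downward. SEPT7 differed by -2.75 ± 0.24 and SEPT3 by -2.31 ± 0.12 on the log2(FPKM + 1) scale, and with a pseudocount of 0.1 the order of the pair turned (-2.81 for SEPT7 and -4.70 for SEPT3). These shares over all genes are given for scale, and nothing particular to the septins is read from the counts.

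**Figure D3:**
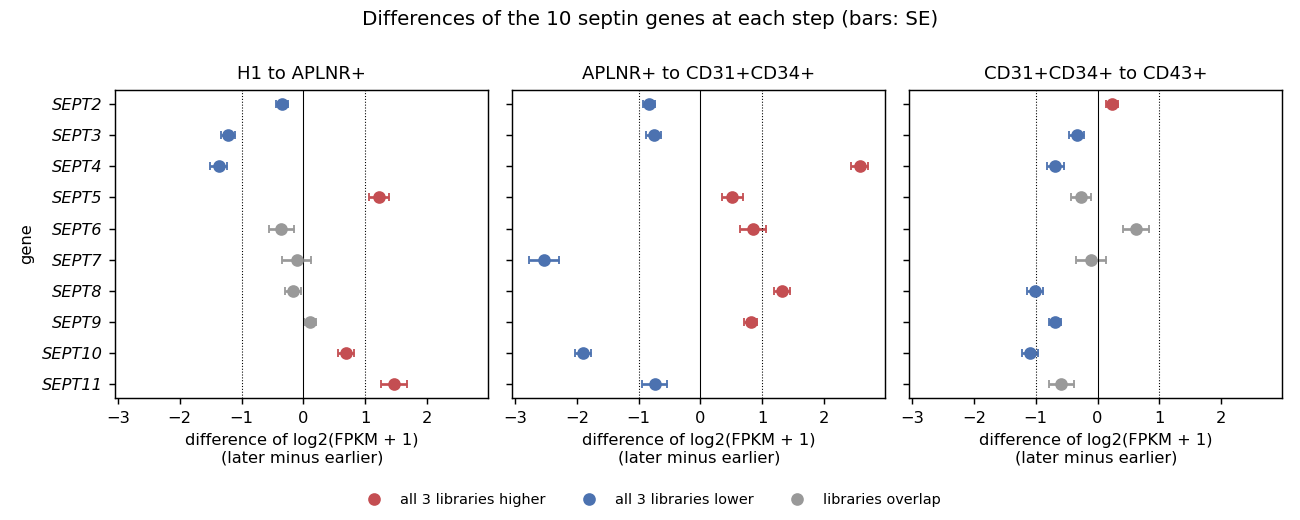
Difference of the mean log2(FPKM + 1) between consecutive stages (horizontal axes, later minus earlier) for the 10 septin genes, with bars for the SE of the limma fit and dotted lines at 2-fold. At the APLNR+ to CD31+CD34+ step SEPT4 lies at 2.58 and SEPT7 at -2.53, and all 10 points are colored as non-overlapping.

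Since a rod takes subunits from each sequence group, the shares of the groups in the summed septin level were compared. The SEPT7 group (SEPT7 alone) held 27.0% ± 3.69 (SD, n = 3) of the summed FPKM in H1, 23.7% ± 3.24 in mesoderm, 4.86% ± 0.909 in HEPs and 5.98% ± 1.21 in HPCs. The SEPT3 group, almost wholly SEPT9, held 23.9% ± 2.02, 23.9% ± 4.68, 51.0% ± 3.48 and 41.9% ± 2.25. For the SEPT2 group the shares were 35.5% ± 2.69, 27.3% ± 1.75, 22.99% ± 0.289 and 32.5% ± 1.20, and for the SEPT6 group 13.6% ± 1.01, 25.1% ± 2.10, 21.2% ± 2.33 and 19.6% ± 1.89. The SEPT7 share was thus lower, and the SEPT3 group share higher, in every library of the later stages than in any of the earlier ones. A share of FPKM is a share of transcripts per length and says nothing about protein.

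**Figure D4:**
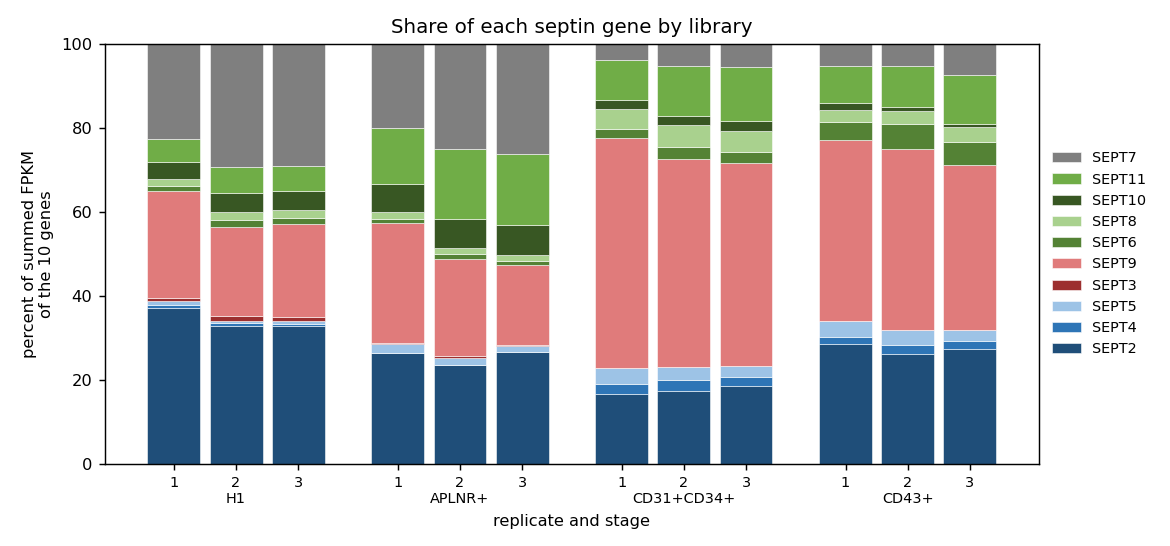
Share of each septin gene in the summed FPKM of the 10 genes (vertical axis, percent) in each of the 12 libraries, stacked by sequence group (blue, SEPT2 group; red, SEPT3 group; green, SEPT6 group; grey, SEPT7). SEPT9 takes a mean of 50.9% in CD31+CD34+ cells against 22.9% in H1, and SEPT7 takes 4.86% against 27.0%.

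Ratios within a library showed the same shift on another scale. SEPT7 stood at 0.798 ± 0.158 times the level of SEPT2 in H1 and 0.937 ± 0.159 times in APLNR+ cells, and at 0.277 ± 0.0414 and 0.219 ± 0.0448 times in CD31+CD34+ and CD43+ cells. SEPT9 was at 0.867 ± 0.215 and 1.03 ± 0.354 times the level of SEPT7 in the first 2 stages, at 10.8 ± 3.05 times in CD31+CD34+ and at 7.22 ± 1.65 times in CD43+ cells. The whole SEPT6 group was at 0.505 ± 0.0350 times the level of SEPT7 in H1, 1.07 ± 0.0620 in mesoderm, 4.41 ± 0.390 in HEPs and 3.33 ± 0.394 in HPCs. These ratios move with the libraries numbered 1, in which SEPT7 was lower relative to SEPT2 and SEPT9.

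The SEPT6 group changed in its makeup as well as its size. SEPT11 was its largest member at every stage, with 42.9% ± 0.727 of the group in H1, 62.2% ± 3.41 in mesoderm, 54.2% ± 2.47 in HEPs and 51.1% ± 2.59 in HPCs. The part of SEPT10 was 33.0% ± 0.644 in H1, 27.7% ± 2.22 in mesoderm, 10.03% ± 1.38 in HEPs and 5.94% ± 2.28 in HPCs. SEPT6 had 10.6% ± 0.928, 4.05% ± 0.525, 11.8% ± 1.13 and 26.9% ± 2.99, so that in CD43+ cells it had the second place that SEPT10 had in H1. SEPT8 had its largest part, 24.0% ± 1.85, in CD31+CD34+ cells. Within the SEPT2 group, SEPT2 held 96.1% ± 0.419 in H1 and 76.1% ± 3.13 in CD31+CD34+ cells, where SEPT4 had 10.4% ± 0.871 and SEPT5 13.5% ± 2.73.

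Pairs of septins and other genes with a like course were described by Pearson's r of log2(FPKM + 1) over the 12 libraries, which share their stages, so that r mostly reflects 4 stage levels. SEPT2 and SEPT7 had an r of 0.94, SEPT8 and SEPT9 0.92, and SEPT7 and SEPT10 0.90. SEPT3 and SEPT5 ran in opposite directions (r = -0.91), as did SEPT6 and SEPT10 (r = -0.91). For the 3 septins with the widest range of stage means on the log2(FPKM + 1) scale (SEPT3 had the widest as a ratio of mean FPKM and is not among them), the genes most alike among those with a mean of at least 10 FPKM were ZNF724, DDX3X and MIB1 for SEPT7 (each with an r of 0.997), OTX2, GJA1 and OAT for SEPT10 (each 0.99), and DNPEP, PRELID1 and FIBP for SEPT4 (0.99, 0.99 and 0.98). DDX3X, an RNA helicase gene, was at a mean of 141 FPKM in both H1 and APLNR+ cells and at 48.4 and 47.5 FPKM in the later stages. OTX2, a homeobox transcription factor gene, was at 12.9, 32.4, 4.18 and 0.106 FPKM from H1 to CD43+ cells.

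Genes whose products bind, place or act with septins were tested with limma, in lists of 53 genes of which 51 passed the filter (at least 1 FPKM in at least 3 libraries). The lists were written from general knowledge with earlier results of these data known. Calls of raised or lowered needed a Benjamini-Hochberg adjusted p under 0.05 together with a 2-fold change or more. From H1 to APLNR+ cells 5 partner genes were raised and 0 lowered, where 8.3% of all genes were raised and 7.62% lowered. At an unadjusted limma p under 0.05 and with no minimum change, 10 partner genes were lower and 19 higher. Shares over all genes were not computed at that looser threshold, so these counts cannot be set against the 8.3% and 7.62%. By the full rule, 1 partner gene was lowered from H1 to APLNR+ cells without H1 replicate 1, H1 replicate 3 or APLNR+ replicate 2. On the way to HEPs 4 were raised and 10 lowered (12.5% and 17.1% of all genes), between HEPs and HPCs 1 was raised and 9 lowered (5.58% and 8.79%), and between H1 and HPCs 6 were raised and 15 lowered (14.6% and 22.5%). Without CD43+ replicate 1, 5 rather than 9 partner genes were lowered from HEPs to HPCs, and without that library, CD31+CD34+ replicate 2 or CD31+CD34+ replicate 3, 2 rather than 1 were raised. Genes listed below in brackets with no values were named after their values were seen. The median difference over the 51 genes at the 4 comparisons was 0.09, 0.07, -0.27 and -0.41 on the log2(FPKM + 1) scale, against -0.12, -0.01, -0.00 and -0.10 over all genes.

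The Borg proteins (CDC42EP1 to CDC42EP5) are effectors of the small GTPase CDC42 that bind septins and help set where filaments form. Of the 5 genes of this list that passed the filter, CDC42 included, 2 were raised at each of the first 2 steps, 3 were lowered from HEPs to HPCs, and 1 was raised and 1 lowered between H1 and HPCs. CDC42EP1 was at 1.07, 1.26 and 1.28 FPKM in H1, 8.60, 9.51 and 7.57 in mesoderm, 26.0, 30.2 and 25.9 in HEPs and 3.77, 4.62 and 2.87 in HPCs. It was raised by 2.11 ± 0.14 on the log2(FPKM + 1) scale from H1 to APLNR+ cells (limma adjusted p = 7.1e-08) and by 1.57 ± 0.14 from there to CD31+CD34+ cells (limma adjusted p = 6.3e-07), and it was lowered on the way to CD43+ cells (-2.59 ± 0.14, limma adjusted p = 1.7e-08). All libraries of each stage were apart from those of the stage before.

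CDC42EP4 had the same order of stages. Its level was 3.64, 2.72 and 3.27 FPKM in H1, 14.2, 11.8 and 13.2 in mesoderm, 24.2, 26.2 and 22.9 in HEPs and 6.44, 7.10 and 6.98 in HPCs. It was raised from H1 to APLNR+ cells (1.74 ± 0.11 on the log2 scale, limma adjusted p = 4.4e-08) and lowered between HEPs and HPCs (-1.70 ± 0.11, limma adjusted p = 7.4e-08), while the difference of 0.86 ± 0.11 between those steps had an adjusted p of 1.4e-05 and was below 2-fold. CDC42EP2 differed from H1 (5.72 ± 0.466 FPKM) to mesoderm by just under 2-fold on the log2(FPKM + 1) scale (limma adjusted p = 2.2e-05) and so was not called there, was raised from APLNR+ to CD31+CD34+ cells (2.37 ± 0.181 to 6.14 ± 0.916 FPKM) and was lowered from there to CD43+ cells (2.45 ± 0.398 FPKM). CDC42EP3 went from 8.91 ± 0.115 FPKM in H1 to 2.58 ± 0.187 in CD43+ cells and was called lowered between these ends (-1.47 ± 0.16, limma adjusted p = 3.5e-06). CDC42EP5 did not pass the filter and had stage means of at most 1.02 ± 0.956 FPKM. CDC42 itself was called in none of the 4 comparisons, with means of 96.0 ± 2.63, 112 ± 15.9, 124 ± 20.2 and 142 ± 15.2 FPKM. Its difference from H1 to HPCs (0.55 ± 0.14, limma adjusted p = 0.0029) was below 2-fold.

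**Figure D5:**
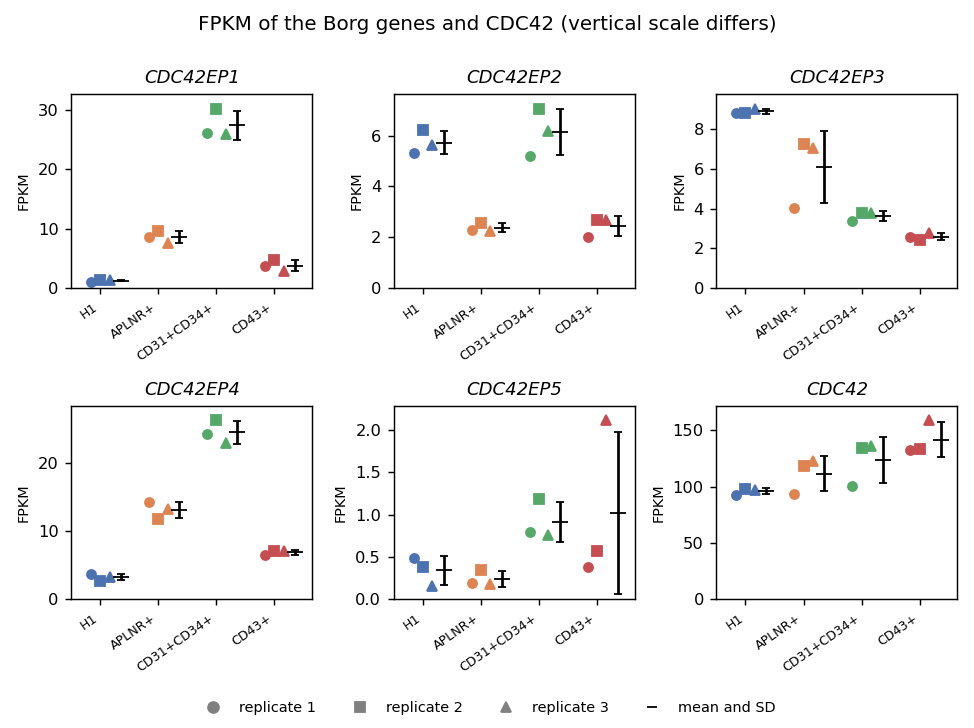
FPKM (vertical axes, linear and starting at 0, with a scale of their own in each panel) of the 5 Borg genes and CDC42 in the 3 libraries of each stage, with the mean and SD in black. CDC42EP1 and CDC42EP4 are highest in CD31+CD34+ cells, at 27.4 and 24.4 FPKM on average, and CDC42EP3 is highest in H1.

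In the list of cleavage furrow and midbody genes, 1 of 16 (CEP55) was raised from H1 to APLNR+ cells, and 1 was raised (RHOA) and 4 lowered (ECT2, KIF23, CEP55 and DIAPH3) at the following step, to HEPs. CEP55, which recruits the machinery that cuts the midbody, was at 6.27, 8.01 and 8.12 FPKM in H1, 33.1, 40.6 and 42.9 in mesoderm, 1.87, 2.14 and 2.20 in HEPs and 0.827, 0.846 and 1.25 in HPCs. It was raised by 2.23 ± 0.13 from H1 to APLNR+ cells (limma adjusted p = 3.3e-08) and lowered from there to CD31+CD34+ cells (-3.69 ± 0.13, limma adjusted p = 3.8e-10). Mesoderm thus had the highest level, as it did for SEPT10 and SEPT11. ECT2, the exchange factor that activates RhoA at the furrow, was lowered from H1 (24.3 ± 2.59 FPKM) to CD43+ cells (3.74 ± 0.345 FPKM), a difference of -2.42 ± 0.11 (limma adjusted p = 9.6e-10). From CD31+CD34+ to CD43+ cells 3 genes of this list were lowered (ANLN, PLK1 and MYH10), and between H1 and CD43+ cells 6 were lowered and 1 raised (MYH9).

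In the exocyst and SNARE list, which covers vesicle docking and fusion, 1 of 18 genes (VAMP8) was raised from H1 to APLNR+ cells, 2 were lowered at the next step (EXOC1 and EXOC5), 1 was raised (STXBP2) from HEPs to HPCs, and 2 were raised (VAMP8 and STXBP2) and 3 lowered (STXBP3, EXOC2 and EXOC5) between H1 and CD43+ cells. VAMP8, a vesicle SNARE of platelets and other secreting cells, was at 24.6, 16.7 and 18.3 FPKM in H1 and 81.8, 90.7 and 82.4 in CD43+ cells, raised by 2.06 ± 0.12 (limma adjusted p = 1.3e-08). STXBP2, a syntaxin-binding protein needed for granule release, was raised from CD31+CD34+ (13.8 ± 1.39 FPKM) to CD43+ cells (35.1 ± 3.10 FPKM), by 1.29 ± 0.13 (limma adjusted p = 5.4e-06). EXOC5, an exocyst subunit, was lowered from APLNR+ (24.6 ± 5.22 FPKM) to CD31+CD34+ cells (5.87 ± 0.944 FPKM), with a difference of -1.88 ± 0.14 (limma adjusted p = 2.1e-07).

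Among 12 other genes whose products bind septins or are controlled by them, 1 was raised from H1 to APLNR+ cells (MAP4), 1 was raised (HDAC6) and 4 lowered (ROCK1, ROCK2, NCK1 and XIAP) from mesoderm to HEPs, and 2 were lowered from there to CD43+ cells (MAP4 and CTTN). Between H1 and CD43+ cells 2 were raised (DIAPH1 and HDAC6) and 5 lowered (ROCK1, ROCK2, CTTN, NCK1 and XIAP). CTTN, the actin-binding protein cortactin, was at 74.7, 68.2 and 66.9 FPKM in H1, 54.4, 55.8 and 50.8 in mesoderm, 45.6, 49.4 and 49.6 in HEPs and 11.8, 11.8 and 11.05 in HPCs. It was lowered between HEPs and HPCs (-1.97 ± 0.08, limma adjusted p = 2.0e-09). HDAC6, a tubulin deacetylase, was raised from APLNR+ (18.01 ± 1.07 FPKM) to CD31+CD34+ cells (43.9 ± 3.69 FPKM), by 1.24 ± 0.11 (limma adjusted p = 7.3e-07).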

How the data were processed

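FPKM values were deposited by the authors in 1 table with a column for each library, matched to the samples by title. The submitters' processing notes name BWA, Bowtie, RSEM and hg19, without saying which made the values, and 2 companies did the sequencing according to the study's methods. RNA and library preparation used Trizol and an Illumina TruSeq kit. Of 58366 lines below the header, 1 held text and was left out, and 27 carried dates (13 September, 13 March, 1 December). For a symbol on several lines (345 symbols) the line with the highest mean was used. Whole reads were not recovered, so depth is known only as a ratio between libraries, estimated from low values, and 3 libraries per stage limit the precision.

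Values were transformed as log2(FPKM + 1). Genes with at least 1 FPKM in at least 3 libraries (14840) were fitted with limma 3.58.1 in R 4.3.3 (all 4 stages in 1 model, eBayes with trend, no covariate), with Benjamini-Hochberg adjustment over all of them, and the fit was tested on simulated data. Adjusted p values in the text are from this model. Septin values received no test. The members and lists were chosen with earlier results of these data known. Named partner genes were the Borg genes and, per comparison, the largest 2 rises and 2 falls among called genes whose libraries did not overlap and whose higher mean reached 10 FPKM. Overlaps, shared 50-base stretches (either strand) and exons came from GENCODE release 29 (GRCh38), which is not the build in the submitters' notes, so positions are given for RefSeq promoter stretches alone. Protein sequences were not used here, so sequence groups are those known for the family.

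Deviations from the stage means correlated between libraries of the same number by 0.19 to 0.39 for CD31+CD34+ and CD43+ cells and by 0.17 to 0.39 for H1 and CD43+ cells, so the number was treated as a pairing for these comparisons in an alternative fit. Python 3.11.15 with numpy 2.4.6, pandas 2.3.3 and matplotlib 3.10.9 was used for tables and figures. Alternatives were a pseudocount of 0.1, upper-quartile scaling, quantile normalization, no filter, a block for the replicate number, fits to the 2 compared stages alone, eBayes without trend, no minimum change, summed lines of a symbol, all 13 septin lines, and leaving out each library. Replicates 2 and 3 alone and replicate 1 alone were added after seeing the data. A call of the exocyst and SNARE list is not reported here.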

Additional observations from a re-analysis of the deposited data

How the results depend on the processing

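With a pseudocount of 0.1, 1 partner gene rather than 0 was lowered from H1 to APLNR+ cells and 2 rather than 1 were raised from CD31+CD34+ to CD43+ cells. The same pseudocount moved 11 of the 40 septin differences by more than the spread between replicates, and none changed sign. By the same measure, replicate 1 alone moved 14 of the 40, quantile normalization 7, upper-quartile scaling 3, and replicates 2 and 3 alone 1. Without a minimum change, 16 partner genes were raised and 9 lowered from H1 to APLNR+ cells, and 18 and 20 from APLNR+ to CD31+CD34+ cells. The counts were 8 and 24 from CD31+CD34+ to CD43+ cells, and 13 and 28 from H1 to CD43+ cells. Shares over all genes without a minimum change were not computed. Upper-quartile scaling and quantile normalization each left 1 septin rather than 2 past 2-fold from CD31+CD34+ to CD43+ cells. Replicates 2 and 3 alone gave 1 partner gene lowered from H1 to APLNR+ cells. Leaving out each library in turn gave 4 to 6, 3 to 4, 1 to 2 and 5 to 7 partner genes raised at the 4 comparisons and 0 to 1, 10 to 12, 5 to 12 and 14 to 16 lowered. It gave 1 to 2 septins past 2-fold from CD31+CD34+ to CD43+ cells. The causes were not tested. Of the 240 septin differences recomputed without a library, 3 turned in sign, all of SEPT7 with a difference under 0.11 on the log2 scale in the full data (0.07 from H1 to APLNR+ cells without APLNR+ replicate 1; 0.02 and 0.04 from CD31+CD34+ to CD43+ cells without CD31+CD34+ replicate 2 and CD43+ replicate 1). Quantile normalization turned SEPT7 to 0.12 from H1 to APLNR+ cells, and replicate 1 alone turned it to 0.05 from CD31+CD34+ to CD43+ cells. Quantile normalization moved the median of all genes by 0.12 from H1 to CD43+ cells.

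With the replicate number as a block, the partner genes raised and lowered were 5 and 0, 4 and 10, 1 and 9, and 6 and 15 at the 4 comparisons, and the pairing changed no count. Same-numbered libraries correlated by -0.02 to 0.43 for H1 and APLNR+ cells, against -0.40 to 0.29 for libraries of different numbers. For APLNR+ and CD31+CD34+ cells the ranges were 0.03 to 0.20 and -0.17 to 0.18. These ranges overlap, so whether a shared number means a pairing between these stages is not known. With 3 libraries per stage and no read counts, the smallest differences between neighbouring stages, such as those of SEPT7 and SEPT9 from H1 to APLNR+ cells, cannot be resolved.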

Other observations

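The other septins measured were low at every stage. SEPT1 had stage means between 0.123 and 0.205 FPKM, SEPT12 reached at most 0.196 FPKM in a library, and SEPT14 was listed at 0 in all 12. Of 21 septin pseudogene and antisense lines, 10 were listed at 0 throughout and 3 reached a stage mean of 1 FPKM, namely SEPT7P2, SEPT14P12 and SEPT2P1. SEPT14P12 was at 1.45 ± 0.431 FPKM (SD, n = 3) in H1, 1.81 ± 0.309 in mesoderm, 0.374 ± 0.308 in HEPs and 0.340 ± 0.341 in HPCs. SEPT2P1 was at 7.09 FPKM in APLNR+ replicate 1 and 1.85 FPKM in H1 replicate 1, and was listed at 0 in the other 10 libraries.

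Annotated spans of 19 genes overlap a septin gene, of which 17 had a value. HDLBP and GP1BB reached a stage mean of 1 FPKM, and the highest stage mean among the other 15 was 0.723 FPKM.

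The summed level of the 8 cardiac and smooth muscle markers was between 517 and 689 FPKM in APLNR+ cells, the stage in which SEPT10 and SEPT11 were highest, between 80.3 and 111 FPKM in H1, between 317 and 375 in HEPs and between 48.1 and 62.7 in HPCs. Most of the sum in APLNR+ cells was TAGLN (466 FPKM) and MYL7 (108 FPKM), which, with CNN1, were highest there. TNNT2 and MYH11 were highest in H1, NKX2-5 in HEPs (21.7 FPKM), and ACTA2 and MYH6 in HPCs (34.8 and 0.390 FPKM). The part of cells with these transcripts in the SEPT10 and SEPT11 levels was not tested. The erythroid markers summed to 4.01 to 9.35 FPKM in H1 and 3.72 to 6.69 FPKM in APLNR+ cells, and the myeloid markers to 6.72 to 9.04 and 2.53 to 3.78 FPKM.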
